A study of Mus musculus with 8 samples.

Results

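Cytochrome P450 enzymes of families 1 to 3 are haem proteins of the endoplasmic reticulum that oxidise drugs, environmental chemicals, steroids, fatty acids and bile acids, and the liver makes more of them than any other organ. They take electrons from P450 reductase and cytochrome b5. Many of their genes lie in clusters of close copies, several are induced by foreign compounds through the nuclear receptors CAR and PXR or the receptor AhR, most are made chiefly by the hepatocytes around the central vein, and in rodents some are made mainly by 1 sex under the control of growth hormone. The genes described here were all those named, as the only gene of a probe set, by a symbol of family Cyp1, Cyp2 or Cyp3 with its subfamily letter and number. They were 43 of the 18193 genes on the array, read by 52 probe sets, and a gene with more than 1 probe set was taken from the one of highest mean signal. Of these 43 genes, 36 passed the filter on low signals and were tested.

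RNA from mouse liver was hybridised to 8 Affymetrix Mouse Genome 430 2.0 arrays, on which each sample has an array of its own and a gene is read by sets of short probes. Mice labelled as Sirt1 knockout (MT), which lack the deacetylase Sirt1 from birth in all cells, were taken at 3 months, and wild-type (WT) mice were taken at 3 months, 12 months or 19 months. Each of these 4 groups had 2 arrays. All were of a mixed 129, FVB and Black Swiss background and were killed within the same morning window. Few mice without Sirt1 survive to adulthood, so the MT group consists of survivors. The study's text describes more mice a group than the 2 arrays analysed here, and the sources do not say whether an array held RNA of 1 mouse or of several, so the spread that p-values are based on here may be technical.

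According to the methods the mutant mice were male, but Xist, the RNA of the inactive X chromosome, lay between the 95.2 and 99.2 percentile of all probe sets on all 8 arrays (3 probe sets), and 9 probe sets of 3 Y-linked genes lay at or below the 43.1 percentile. The labels give no sex, and these values bear on the sex-biased P450 genes below. Sirt1 itself had signals of 615 and 713 in MT mice and 589 and 539 in WT mice of 3 months. The allele lacks internal exons, and the position of the probe set relative to them was not known here, so this signal does not check the label. Arrays were scaled alike (trimmed mean 500.004 on each, medians 74.5 to 82.8) and correlated at 0.913 to 0.927 within groups and 0.909 to 0.922 between groups. Albumin signals of 56871 and 50822 in MT mice and between 38989.8 and 58948 in WT mice marked all the samples as liver.

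No P450 gene of these families passed an adjusted p under 0.05 in any of the 5 comparisons (limma with Benjamini-Hochberg adjustment over all 22519 probe sets tested). The background share of probe sets that did was 0.515% for MT against WT mice at 3 months, 0.0133% for WT mice at 12 against 3 months, 0.0355% at 19 against 3 months, 0% at 19 against 12 months and 0.275% for MT mice against WT mice of 19 months. At an unadjusted p under 0.05 there were 5 of the 36 genes (13.9%) for MT against WT mice at 3 months, beside 13.5% of all probe sets. In WT mice there were 4 genes (11.1%) at 12 against 3 months beside 8.57%, 7 (19.4%) at 19 against 3 months beside 12.5%, and 5 (13.9%) at 19 against 12 months beside 10.7%. MT mice against WT mice of 19 months gave 9 genes (25%) beside 13%. The differences described below are therefore measured values that did not pass the test across all probe sets, and "higher" and "lower" refer to the means of the pairs. In bulk liver, fewer cells of a type and less RNA per cell cannot be told apart.

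**Figure D1:**
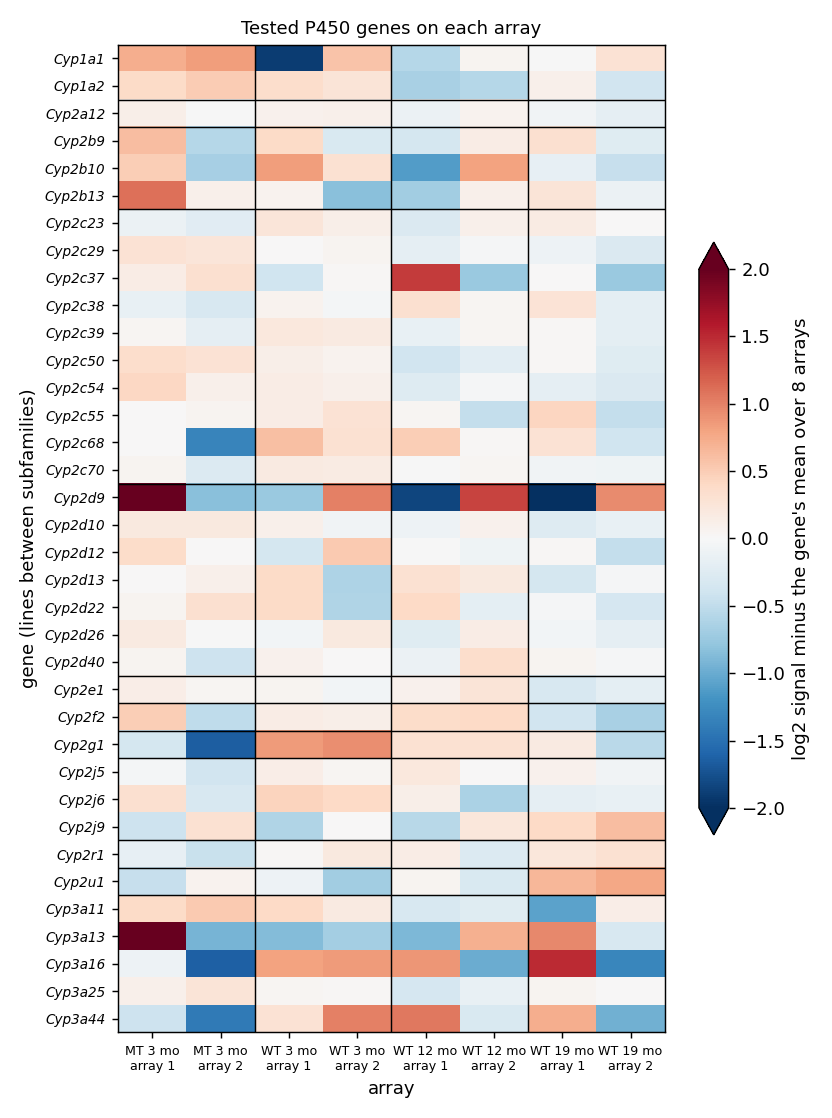
Log2 signal of the 36 tested P450 genes (rows, ordered by subfamily) on each of the 8 arrays (columns), minus the mean of the gene over the 8 arrays; colours end at -2 and 2. Cyp2d9, Cyp3a13, Cyp3a16 and Cyp3a44 differ strongly between both arrays of a group, while Cyp2a12, Cyp2c29, Cyp2e1 and Cyp3a25 are nearly even across all columns.

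At 3 months, the P450 gene with the largest difference between MT and WT mice was Cyp2g1, an enzyme best known from the olfactory mucosa of rodents. Its signals were 667 and 271 in MT mice, against 1534 and 1619 in WT mice of the same age. Both MT arrays lay below both WT arrays, and they also differed from each other 2.46-fold. The log2 difference was -1.89 ± 0.37 (SE), 3.70-fold lower in MT mice, with a limma adjusted p of 0.0643, the lowest of the 36 genes. Without MT array 1 the difference was -2.54 with an adjusted p of 0.0158, without MT array 2 it was -1.24 with an adjusted p of 0.13, and over the other single omissions the adjusted p lay between 0.0682 and 0.294.

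Among the Cyp3a genes, which encode steroid and drug hydroxylases, Cyp3a16 and Cyp3a44, female-biased in mice, were the next lowest in MT mice. Cyp3a16 had signals of 6745 and 2339 in MT mice, against 12737 and 13083 in WT mice (log2 difference -1.70 ± 0.86, limma adjusted p 0.433). Cyp3a44 had 3296 and 1655 in MT mice, against 5353 and 8851 in WT mice (log2 difference -1.56 ± 0.59, adjusted p 0.287 by limma). For both genes the MT arrays lay below the WT arrays, but the MT pair itself spread 2.88-fold and 1.99-fold, and the difference of Cyp3a16 was -2.46 without MT array 1 and -0.94 without MT array 2. In contrast, Cyp3a11, the major drug-metabolising P450 of the subfamily and a PXR target, had overlapping signals of 54722 and 59952 in MT mice and 55316 and 47428 in WT mice. Cyp3a25 differed by 0.16 ± 0.11 on the log2 scale with arrays just apart. Cyp3a13 had 8659 and 1117 in MT mice and 1172 and 1326 in WT mice, so that 1 MT array stood far above the other 3 and the groups overlapped (1.32 ± 0.84 on the log2 scale).

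In the Cyp2c subfamily, which includes epoxygenases of arachidonic acid, 3 of the 10 tested genes had both MT arrays above both WT arrays and 6 had them below, beside 24% and 21.7% of all probe sets. Cyp2c68 was the lowest, with signals of 24063 and 9638 in MT mice, against 36391 and 29462 in WT mice, a log2 difference of -1.10 ± 0.38 (limma adjusted p 0.249). Without MT array 1 it was -1.76 and without MT array 2 -0.44. Cyp2c29, an abundant epoxygenase, was slightly higher, with 58009 and 55610.4 in MT mice and 47558 and 48878 in WT mice (log2 difference 0.24 ± 0.11, adjusted p 0.404 by limma). Cyp2c50 and Cyp2c37, epoxygenases too, had differences of 0.23 ± 0.13 and 0.42 ± 0.55 with arrays apart. Cyp2c70, which makes the muricholic acids of mouse bile, was lower by a similar size, with 40989.6 and 32735 in MT mice and 44468 and 44192 in WT mice (log2 difference -0.28 ± 0.12). The subfamily thus had no common direction, and its median log2 difference was -0.22.

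The 2 genes of the Cyp1a subfamily, targets of AhR, both lay higher in MT mice without reaching the threshold. Of the 4 tested AhR targets these 2 lay above 0 and the other 2 below, with a median log2 difference of 0.04. Cyp1a2, the hepatic enzyme that oxidises caffeine and aromatic amines, had 32845 and 35615 in MT mice, against 32013 and 30116 in WT mice, a small difference of 0.14 ± 0.15 on the log2 scale. Cyp1a1, which is induced rather than constant in liver, had 127 and 137 in MT mice and 20.6 and 114 in WT mice. Its log2 difference of 1.45 ± 0.69 rested on 1 WT array, since it was 0.21 without WT array 1 and 2.68 without WT array 2. Its signals on the 8 arrays lay between 20.6 and 137, close to the array medians. The receptor Ahr had 3539 and 3537 in MT mice and 2957 and 2811 in WT mice (adjusted p 0.403).

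Among the remaining genes, Cyp2b13, a female-biased steroid hydroxylase, had the second highest difference among genes with arrays apart, with 28097 and 14027 in MT mice, against 13669.8 and 7343 in WT mice (log2 difference 0.99 ± 0.39, limma adjusted p 0.304). The arrays did not overlap, but the lower MT array exceeded the higher WT array only slightly. Cyp2r1, a vitamin D 25-hydroxylase, had 902 and 745 in MT mice and 1026 and 1156 in WT mice, a log2 difference of -0.41 ± 0.19. The arachidonic acid epoxygenases Cyp2j5 and Cyp2j6 lay apart and lower in MT mice, with log2 differences of -0.29 and -0.42, and Cyp2j9 overlapped. Further probe sets of Cyp2j5 and Cyp2j6 also lay apart and lower, at -0.66 and -0.59 (limma adjusted p 0.194 and 0.292). Cyp2e1, the ethanol- and acetaminophen-oxidising P450, overlapped as well, with 64029 and 59877 in MT mice and 60551 and 55949.9 in WT mice.

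Over all 36 genes, 8 had both MT arrays above both WT arrays and 12 had them below, which is 22.2% and 33.3% of them beside a background of 24% and 21.7% of all probe sets. The genes were split nearly evenly in direction, with 19 above 0 and 17 below. Their median log2 difference of 0.05 was close to the median of 0.02 over all probe sets tested. Over all 43 genes the median was 0.09, and it was -0.11 without WT array 1, -0.10 without WT array 2 and -0.08 without MT array 1.

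**Figure D2:**
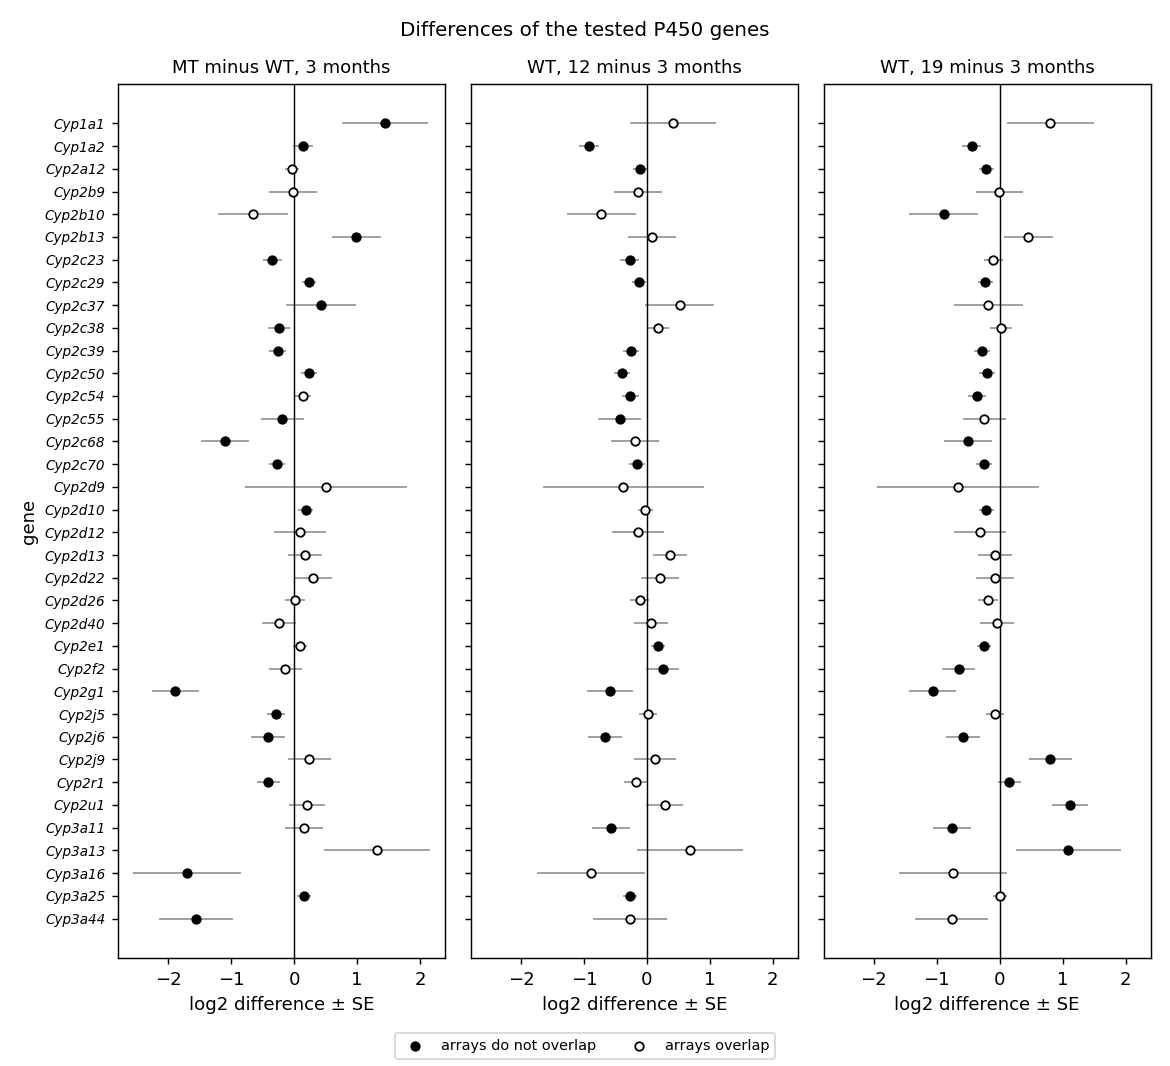
Log2 difference ± SE of each of the 36 tested P450 genes between MT and WT mice at 3 months, and between WT mice of 12 or 19 months and of 3 months; filled points are genes whose arrays do not overlap between both groups (20, 15 and 19 genes). Cyp2g1 lies below 0 in all 3 panels, which share the WT arrays of 3 months, and 28 of 36 genes lie below 0 at 19 months.

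In WT mice at 12 months, the P450 gene of lowest adjusted p was Cyp1a2. It had signals of 15937 and 16871 at 12 months, against 32013 and 30116 at 3 months. Both pairs were tight, and the lower pair was 1.89-fold below the other, a log2 difference of -0.92 ± 0.15 with a limma adjusted p of 0.145. Over the other limma settings tried, the log2 difference stayed between -0.97 and -0.88. The methods' t-test gave Cyp1a2 an unadjusted p of 0.00425, and after Benjamini-Hochberg adjustment that test called 0 of the 36 genes. At 19 months Cyp1a2 had 26908 and 19310.2, between the other ages, and its log2 difference from 3 months was -0.45 ± 0.15 (limma adjusted p 0.308). From 12 months it differed by 0.48 ± 0.15 in the other direction (limma adjusted p 0.333), with the arrays apart in both comparisons.

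Cyp3a11 was also lower in all 4 arrays of the older WT mice, as were further genes, Cyp2g1, Cyp2c29 and Cyp2c70 among them. Signals of Cyp3a11 were 55316 and 47428 at 3 months, 33374 and 35488 at 12 months and 19923 and 46027 at 19 months. The 12-month arrays were alike, while the 19-month arrays differed 2.31-fold, and the higher of them almost reached the lower array of 3 months. The log2 difference from 3 months was -0.57 ± 0.30 at 12 months (limma adjusted p 0.647) and -0.76 ± 0.30 at 19 months (limma adjusted p 0.358). Without 19-month array 1 the second of these was -0.15, and without 19-month array 2 it was -1.36.

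Also lower at 12 months with arrays apart were Cyp2j6 (-0.67 ± 0.27 on the log2 scale), Cyp2c55 (-0.43), Cyp2c50 (-0.39), Cyp3a25 (-0.27) and Cyp2g1, the last with 1051 and 1050.4 at 12 months and 1534 and 1619 at 3 months (-0.59 ± 0.37). A further probe set of Cyp2j6 differed by -0.21 and its arrays overlapped. Of the 10 tested Cyp2c genes 7 were among the genes apart and lower, by 0.43 or less in size on the log2 scale. Only Cyp2e1 and Cyp2f2 were higher with arrays apart, by 0.18 and 0.25 on the log2 scale. In all, 13 genes (36.1%) lay apart and lower and 2 (5.56%) apart and higher, beside a background of 20.8% and 19.3% of all probe sets. The median log2 difference of the 36 genes was -0.14, and that of all probe sets tested -0.0034.

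At 19 months the gene of lowest adjusted p was Cyp2u1, listed as male-biased, whose human counterpart hydroxylates long-chain fatty acids. It had signals of 344 and 371 at 19 months, against 202 and 133 at 3 months, a 2.18-fold higher level with a log2 difference of 1.12 ± 0.29 (limma adjusted p 0.218). At 12 months it had 226 and 176, so that both 19-month arrays stood above the 4 arrays of the younger WT mice. A further probe set of Cyp2u1, of too low signal to be tested, had 153 and 95.7 at 19 months and 30.3 and 97.0 at 3 months. Its arrays overlapped in that comparison, with a log2 difference of 1.16. Cyp2j9 was similar in direction, with 356 and 413 at 19 months, against 177 and 271 at 3 months (0.81 ± 0.34 on the log2 scale, limma adjusted p 0.379). Cyp3a13 and Cyp2r1 completed the 4 genes that lay apart and higher, by 1.09 ± 0.84 and 0.15 ± 0.19 on the log2 scale, and the first of these was 0.45 without 19-month array 1 and 1.73 without 19-month array 2.

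Lower at 19 months were Cyp2g1, with 969 and 588 at 19 months and 1534 and 1619 at 3 months (-1.06 ± 0.37 on the log2 scale, limma adjusted p 0.308), and Cyp2f2, an enzyme that oxidises naphthalene and, unlike most P450s, is made around the portal vein of mouse liver. Cyp2f2 had 16790.5 and 13889 at 19 months, against 24335 and 23667 at 3 months and 28219 and 28884 at 12 months. The 19-month pair lay below the other 4 WT arrays, with a log2 difference of -0.65 ± 0.26 from 3 months and -0.90 ± 0.26 from 12 months (limma adjusted p 0.361 and 0.3). Cyp2e1 showed the same order with smaller differences, at 46675 and 51161 in 19-month-old mice, against 60551 and 55949.9 at 3 months and 62214 and 69637 at 12 months. It differed by -0.25 ± 0.11 and -0.43 ± 0.11 on the log2 scale, and the second had the lowest adjusted p of the genes between 19 and 12 months (0.274 by limma). Over the other limma settings tried, this second difference lay between -0.51 and -0.19.

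All 7 tested Cyp2d genes and 9 of the 10 tested Cyp2c genes were below 0 at 19 months, with medians of -0.18 and -0.23 on the log2 scale. Among the abundant members of both subfamilies with arrays apart and lower were Cyp2c68 (-0.51 ± 0.38), Cyp2c54 (-0.36 ± 0.14), Cyp2c29 (-0.23 ± 0.11), Cyp2c70 (-0.25 ± 0.12) and Cyp2d10 (-0.21 ± 0.12). Over the 36 genes, 15 (41.7%) lay apart and lower and 4 (11.1%) apart and higher, beside 21.8% and 26.4% of all probe sets. Their median log2 difference was -0.21 with 28 genes below 0, and that of all probe sets tested was 0.02. Strong signals were lower as a whole at 19 months on the authors' scale: the 1000 probe sets of highest mean signal, which included 18 of the 43 genes, had a median of -0.12. With quantile normalization this median was 0.00019, that of the 36 genes was -0.10, and 10 genes lay apart and lower and 4 higher.

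Between 19 and 12 months, 5 genes lay apart and higher and 6 apart and lower (13.9% and 16.7%, beside 23.8% and 17.5% of all probe sets), and 14 genes were above 0 and 22 below with a median of -0.10. With quantile normalization the split turned to 8 higher and 4 lower apart, and to 20 above 0 and 16 below with a median of 0.03, so that no direction held for the whole group of genes. Cyp2u1 at 0.84 ± 0.29 and Cyp2j9 at 0.68 ± 0.34 had the highest log2 differences among genes apart, and Cyp2f2 the lowest. Cyp2g1 and Cyp2d13 also lay apart and lower, at -0.48 and -0.44.

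**Figure D3:**
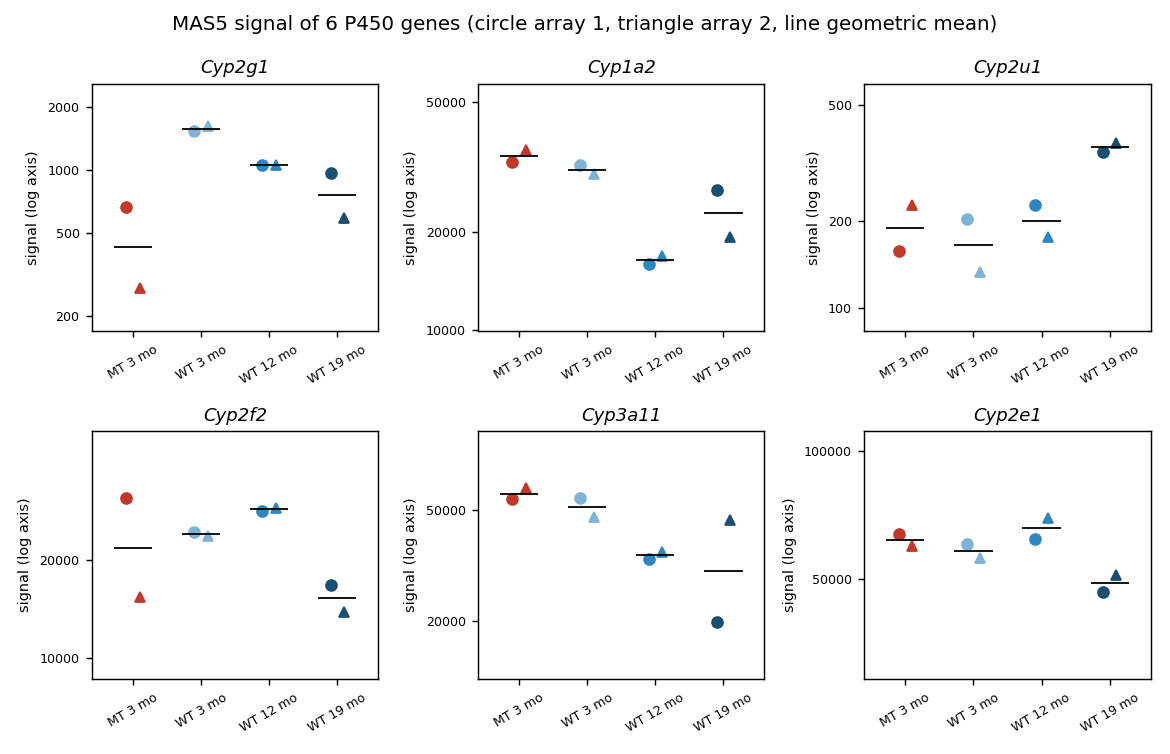
MAS5 signal (log axis) of Cyp2g1, Cyp1a2, Cyp2u1, Cyp2f2, Cyp3a11 and Cyp2e1 on each array of the 4 groups, with lines at the geometric mean of each pair. Cyp1a2 is lowest at 12 months, Cyp2u1 is highest at 19 months, and Cyp2g1 is below the WT 3-month pair in the 3 other groups.

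The difference of MT mice from WT mice at 3 months and that of 19-month-old WT mice share the 3-month WT arrays, so MT mice were also set directly against WT mice of 19 months. Cyp3a11 was 1.89-fold higher in MT mice, with 54722 and 59952 in MT mice and 19923 and 46027 in 19-month-old WT mice (log2 difference 0.92 ± 0.30, limma adjusted p 0.256). The size depended on the uneven 19-month pair, and without 19-month array 2 it was 1.52 with an adjusted p of 0.0351, while without 19-month array 1 it was 0.32. Cyp1a2 had 32845 and 35615 in MT mice and 26908 and 19310.2 in WT mice of 19 months (0.59 ± 0.15 on the log2 scale, limma adjusted p 0.172). Cyp2c29 had the lowest adjusted p of this comparison (0.147 by limma) with 58009 and 55610.4 in MT mice and 43883 and 38696 in WT mice of 19 months.

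Cyp2u1 was lower in MT mice than at 19 months, with 157 and 226 in MT mice and 344 and 371 in WT mice of 19 months (-0.92 ± 0.29 on the log2 scale, limma adjusted p 0.238). Cyp2r1, Cyp2j9 and Cyp2c23 also lay apart and lower, at -0.56, -0.57 and -0.25 on the log2 scale. Cyp2g1, below the young WT level in both groups, had overlapping signals of 667 and 271 in MT mice and 969 and 588 in WT mice of 19 months (-0.83 ± 0.37, limma adjusted p 0.391). Of the 36 genes 14 (38.9%) lay apart and higher in MT mice and 4 (11.1%) apart and lower, beside 21.6% and 22.6% of all probe sets, with a median log2 difference of 0.19. With quantile normalization these were 8 and 6 genes with a median of 0.07.

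For Cyp2d9, the male-biased testosterone 16-alpha-hydroxylase, both arrays of a group differed more than any 2 groups did. Its signals were 2993 and 389 in MT mice, and in WT mice 414 and 1388 at 3 months, 195 and 1760.3 at 12 months and 174 and 1326 at 19 months. Each pair held 1 high and 1 low array, 3.36-fold to 9.04-fold apart, and no group stood out. With Cyp2u1 it made up the list of male-biased P450 genes, of which 0 were called. The SD of Cyp2d9 within groups was at the 99.96 percentile of all probe sets tested. Cyp3a16 and Cyp3a13 were at the 99.7 and 99.6 percentile, and Cyp3a44, Cyp1a1, Cyp2b10 and Cyp2c37 at the 98.4, 98.6, 98 and 98 percentile. At the other end, Cyp2c29, Cyp3a25, Cyp2a12, Cyp2e1 and Cyp2d10 were between the 6.52 and 8.21 percentile, so that the spread within groups differed widely among these genes.

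Among the female-biased genes, near neighbours had the higher signal on the same arrays. Cyp2b9, Cyp2b13 and Cyp2b10 shared their higher array in each of the 4 groups, an order that 11 of the 43 genes shared, Cyp2f2 and several Cyp2c genes among them. Cyp2b9 had signals of 19467 and 8579.7 in MT mice, and in WT mice 16658 and 10266 at 3 months, 9995 and 14084 at 12 months and 15836 and 10704 at 19 months. Cyp2b10, the inducible gene of the subfamily and the standard target of CAR, had 4246 and 1899 in MT mice, and in WT mice 5383 and 3712 at 3 months, 1390.5 and 5248 at 12 months and 2679 and 2181 at 19 months. The arrays of the 4 groups overlapped for Cyp2b9, and those of Cyp2b10 lay apart only between 19 and 3 months (-0.89 ± 0.55 on the log2 scale). Cyp3a16 and Cyp3a44 likewise shared their higher array in each group, as 4 of the 43 genes did in that order. In WT mice Cyp3a16 had 13365 and 3664 at 12 months and 20354 and 2927 at 19 months, and Cyp3a44 had 9092 and 3572 at 12 months and 7268 and 2259 at 19 months, against the even WT pair of Cyp3a16 at 3 months given above. The 5 measured genes of the 10 on the list of female-biased P450s gave 0 calls in each comparison. In MT mice, at 12 months and at 19 months, 4 of 5 were below 0 against WT mice of 3 months, all but Cyp2b13. Cyp2b9 was among these 4 with log2 differences of only -0.017, -0.14 and -0.0064. Of all 22519 probe sets tested, 10746, 11368 and 10586 were below 0 in these comparisons. They share the WT arrays of 3 months and are not independent. In the comparisons that do not use those arrays, 2 of 5 were below 0 at 19 against 12 months. For MT mice against WT mice of 19 months, 3 of 5 were.

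**Figure D4:**
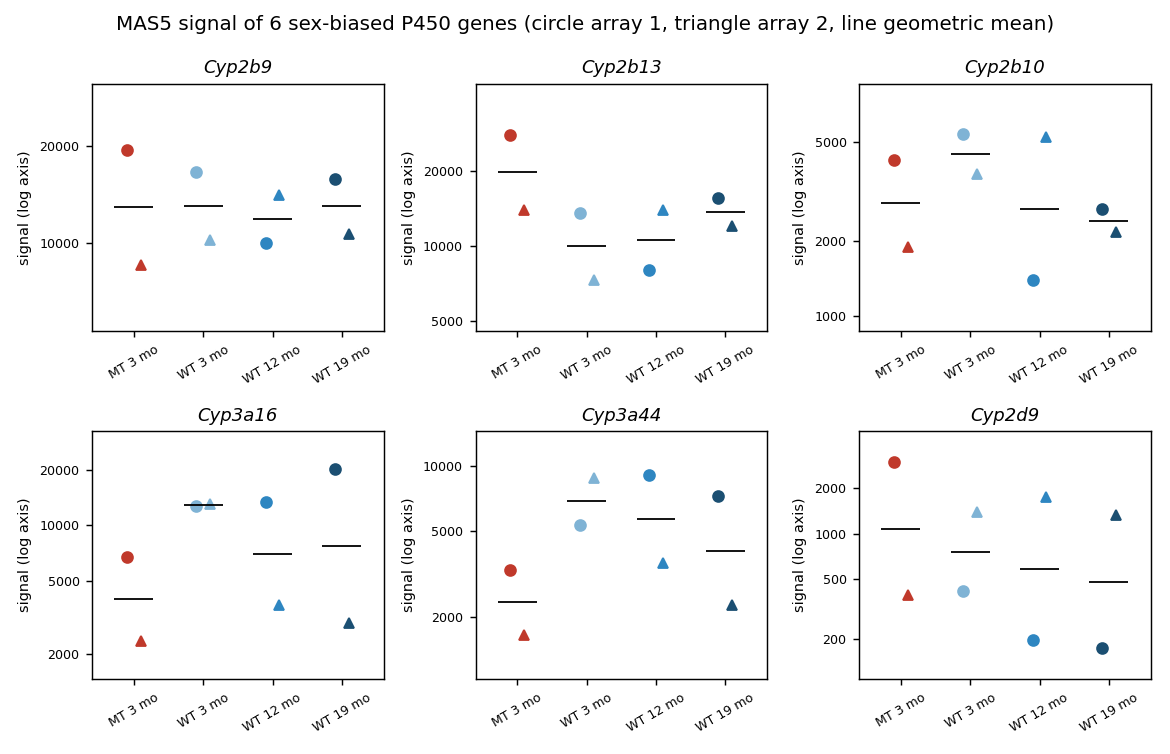
MAS5 signal (log axis) of Cyp2b9, Cyp2b13, Cyp2b10, Cyp3a16, Cyp3a44 and Cyp2d9 on each array, with lines at the geometric mean of each pair. Circles (array 1) and triangles (array 2) change places together for the 3 Cyp2b genes and for both Cyp3a genes, and Cyp2d9 spreads up to 9.04-fold within a group.

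Genes of these clusters are near copies, so that probes of one can also bind RNA of another and their values are uncertain as readings of 1 gene. Sequences of the probes and transcripts were not compared, so this sharing was not tested. Promoters of the Cyp2b and Cyp3a genes that shared their higher arrays, and of Cyp3a11 beside them, were compared as a separate description. Each window holds the 250 bases before the start of the gene in RefSeq (GRCm38.p6), 5′ to 3′ on the strand of the gene. These bases lie outside the RNA that probes bind, so their identity does not measure binding of probes to near copies. Capitals mark the hexamer AGGTCA bound by many nuclear receptors and the TATA box letters TATAAA, both searched on both strands and not overlapping here.
Cyp2b9 (chr7:26173159-26173408, + strand): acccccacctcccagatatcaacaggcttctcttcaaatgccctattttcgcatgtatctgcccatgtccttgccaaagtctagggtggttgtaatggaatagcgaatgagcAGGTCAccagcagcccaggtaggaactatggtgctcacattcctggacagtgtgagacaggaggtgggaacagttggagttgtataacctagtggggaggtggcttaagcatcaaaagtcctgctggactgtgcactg
Cyp2b13 (chr7:26061245-26061494, + strand): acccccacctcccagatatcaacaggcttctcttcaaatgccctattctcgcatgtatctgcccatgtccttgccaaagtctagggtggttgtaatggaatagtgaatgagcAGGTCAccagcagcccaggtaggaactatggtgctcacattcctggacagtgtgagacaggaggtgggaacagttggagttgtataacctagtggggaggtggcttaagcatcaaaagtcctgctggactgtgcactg
Cyp2b10 (chr7:25897408-25897657, + strand): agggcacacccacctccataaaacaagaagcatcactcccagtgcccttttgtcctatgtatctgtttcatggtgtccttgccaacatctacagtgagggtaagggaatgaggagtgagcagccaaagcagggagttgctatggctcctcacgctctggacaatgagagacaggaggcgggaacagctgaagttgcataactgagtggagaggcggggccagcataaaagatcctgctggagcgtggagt
Cyp3a16 (chr5:145469724-145469973, - strand): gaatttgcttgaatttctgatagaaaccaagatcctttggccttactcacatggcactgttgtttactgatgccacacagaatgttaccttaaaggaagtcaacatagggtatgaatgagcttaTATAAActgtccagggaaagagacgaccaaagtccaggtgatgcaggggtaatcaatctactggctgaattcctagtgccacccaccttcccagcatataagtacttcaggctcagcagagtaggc
Cyp3a44 (chr5:145805875-145806124, - strand): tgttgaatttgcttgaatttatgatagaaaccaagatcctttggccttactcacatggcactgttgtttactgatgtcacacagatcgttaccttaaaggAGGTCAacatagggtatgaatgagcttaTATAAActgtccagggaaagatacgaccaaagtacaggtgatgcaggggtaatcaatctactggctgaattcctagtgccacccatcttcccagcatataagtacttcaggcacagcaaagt
Cyp3a11 (chr5:145879855-145880104, - strand): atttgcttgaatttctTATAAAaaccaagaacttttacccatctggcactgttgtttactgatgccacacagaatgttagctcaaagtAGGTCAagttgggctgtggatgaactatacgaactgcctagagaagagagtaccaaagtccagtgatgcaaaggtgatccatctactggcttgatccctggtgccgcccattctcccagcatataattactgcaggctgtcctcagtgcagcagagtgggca
The windows of Cyp2b13 and Cyp2b9 were identical at 99.2% of aligned positions with 2 mismatches, while that of Cyp2b10 matched either at 71.0%. Those of Cyp3a16 and Cyp3a44 matched at 92.9%, and that of Cyp3a11, whose higher array was the other one in each of the 4 groups, matched these at 76.6% and 72.5%. An AGGTCA hexamer lay in the windows of Cyp2b9, Cyp2b13, Cyp3a44 and Cyp3a11 among those printed. Promoters were found for 35 of the 43 genes, of which 11 held AGGTCA and 17 TATAAA in any of their promoters. Of all 32851 promoters searched, 14% and 12.4% held them. These shares count single promoters and not genes, so they differ in unit from the counts of genes. A match is a description of letters only.

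Other genes that act on P450s were given by lists. Of 19 tested regulators (nuclear receptors, liver factors and growth hormone signalling) 0 were called in any comparison against WT mice of 3 months. The lowest adjusted p was that of Stat5b, the factor that carries the growth hormone signal to sex-biased genes, with 846 and 738 in MT mice, against 1516 and 1432 in WT mice (log2 difference -0.90, limma adjusted p 0.0528). The CAR gene Nr1i3 had 3776 and 2819 in MT mice and 2779 and 3109 in WT mice, and the PXR gene Nr1i2 had 943 and 1061 in MT mice and 1085 and 1022 in WT mice. Dbp and Tef are clock-driven PAR bZIP factors that act on P450 and haem synthesis genes in mice, and with Hlf and the related repressor Nfil3 they made up a list of 4, of which 0 were called. The 3 PAR factors had MT arrays apart and higher and Nfil3 had them apart and lower, beside 24% and 21.7% of all probe sets. Dbp had 6904 and 9385 in MT mice, against 252 and 1060.3 in WT mice (log2 difference 3.96, limma adjusted p 0.0918), and Tef had 2839 and 2455 in MT mice, against 1033 and 1333 in WT mice. Alas1, the rate-limiting enzyme of haem synthesis, had 7753 and 15047 in MT mice, against 2582 and 5097 in WT mice (log2 difference 1.57, limma adjusted p 0.129), and none of the 13 tested electron donor and haem genes was called in a comparison against WT mice of 3 months. The part of these genes in the P450 values was not tested.

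P450 genes of later families were tested in the same fit. Of 19 tested P450 genes of families 4 and above, 1 was called in MT against WT mice at 3 months, beside 0.515% of all probe sets. There was 1 at 19 against 3 months, beside 0.0355%, and 1 in MT mice against WT mice of 19 months, beside 0.275%. Each was Cyp7b1, a male-biased oxysterol hydroxylase. It had 1670.4 and 1620.2 in MT mice, against 7842 and 6406 in WT mice (log2 difference -2.11, limma adjusted p 0.000748), and 2956 and 3253 in WT mice of 19 months (log2 difference -1.19 from 3 months, limma adjusted p 0.0459). MT mice differed from WT mice of 19 months by -0.91 on the log2 scale (limma adjusted p 0.0458). The female-biased gene Prom1 had 461 and 305 in MT mice, against 1649.8 and 1579 in WT mice (limma adjusted p 0.0813), and its MT arrays, like those of Cyp7b1, lay below both WT arrays.

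Markers of position in the liver lobule and of cell types were measured on the same arrays, and 0 of those given here were called against WT mice of 3 months. Of 10 tested pericentral markers outside the P450s, 9 were below 0 at 12 months with a median log2 difference of -0.47, and 7 had arrays apart and lower, beside 20.8% of all probe sets. Their summed signal was 78394 to 87221 at 12 months, against 103073 to 104370 at 3 months. At 19 months 7 were below 0 with a median of -0.21 and a summed signal of 75086 to 89957. All 9 tested periportal markers were below 0 at 19 months (median -0.32). So were 10 of 11 hepatocyte markers (median -0.21), whose summed signal was 464997 to 497577 at 19 months, against 547413 to 574121 at 3 months. Marker lists were read on the authors' scale only. On that scale the 1000 probe sets of highest mean signal had a median of -0.12 at 19 against 3 months. With quantile normalization that median was 0.00019. All 9 macrophage markers were above 0 at 19 months (median 0.79, 8 with arrays apart and higher, beside 26.4% of all probe sets), with a summed signal of 28931 to 45790 at 19 months, against 23532 to 24226 at 3 months. In MT mice 10 of 11 hepatocyte markers were above 0 (median 0.11) and 7 of 9 macrophage markers below 0 (median -0.26) relative to WT mice of 3 months, and the summed signals were 583832 to 611322 and 17816 to 19974 in MT mice. The 3′ to 5′ difference of the pyruvate carboxylase control, a measure of how complete the labelled RNA was, was 3.88 and 3.93 log2 units in MT mice. In WT mice it was 4.25 and 3.88 at 3 months, 4.54 and 5.10 at 12 months and 5.86 and 4.77 at 19 months, so that the older arrays lay above the young ones for this control. For the actin and Gapdh controls the young and older arrays overlapped, with 0.97 to 1.48 in mice of 3 months and 1.23 to 1.31 in older mice for actin, and -0.62 to -0.38 in mice of 3 months and -0.46 to -0.34 in older mice for Gapdh. The part of these markers and of RNA quality in the P450 values was not tested.

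The 7 genes that did not pass the filter on low signals were Cyp1b1, Cyp2b19, Cyp2c65, Cyp2d34, Cyp2j11, Cyp2j13 and Cyp2s1. Cyp1b1, an oestrogen hydroxylase of tissues outside the liver, had 8.01 and 63.4 in MT mice, and in WT mice 24.8 and 52.7 at 3 months, 95.9 and 52.0 at 12 months and 52.1 and 95.9 at 19 months. These genes lay at 1.68 to 95.9 on single arrays, around or below the median probe set, and their levels cannot be ordered between groups. Of the tested genes not described so far, Cyp2a12, a steroid and bile acid hydroxylase, was between 28294 and 34674 on all 8 arrays. The Cyp2d genes other than Cyp2d9 showed no large difference either, and the log2 differences of all 7 tested Cyp2d genes from WT mice of 3 months lay between -0.23 and 0.51 in MT mice, -0.37 and 0.36 at 12 months, and -0.66 and -0.04 at 19 months.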

How the data were processed

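The authors hybridised total liver RNA, labelled with biotin, and deposited MAS5 signal intensity values for 45101 probe sets on a linear scale, scaled to the same trimmed mean on all 8 arrays. The MAS5 version, the detection calls and the scanner files are not given in the sources used here. Groups came from the sample labels. The 64 control probe sets were left out. Signals under 1 were set to 1 and put on the log2 scale. The 50% of probe sets with the highest mean log2 signal (22519 of 45037, lowest mean 6.18) were tested with limma 3.58.1 (R 4.3.3; lmFit, eBayes with a variance trend; 4 residual and 5.37 prior degrees of freedom), with 4 groups in 1 fit, 5 comparisons and Benjamini-Hochberg adjustment over all probe sets of a comparison, called under 0.05. Groups were called apart where both arrays of one lay above both of the other. An exact permutation of 2 against 2 arrays cannot go below p = 0.333 and was not used. The fit was tested on simulated data.

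Genes were named from the platform annotation, and all 43 Entrez IDs were found in RefSeq with 0 changed symbols. The 2 probe sets that list several genes including a P450 of these families were left out, and 7 genes were read by probe sets with a letter suffix, which can bind related transcripts (among them Cyp1a1, Cyp2b10, Cyp2c23, Cyp2d9, Cyp2d13 and Cyp2f2). The genes, the lists and the rule for naming were chosen with earlier results of these data known. Named were, for each comparison, the 4 largest positive and 4 largest negative differences among genes with arrays apart and above the array median, the sex-biased P450 genes, P450 genes of well-known role in liver, and from each list of related genes the 2 of largest moderated t; other genes were named as ends of a range or from the lists after their values were seen. Alternatives covered normalization, pseudocount, filter, groups in the fit, variance prior, the methods' t-test, threshold, replicate block, the probe set used per gene and the omission of each array. The number of arrays limits the precision. Promoter windows came from RefSeq (GRCm38.p6) and were aligned with Biopython 1.88 in Python 3.11.15; pandas 2.3.3, numpy 2.4.6 and matplotlib 3.10.9 were also used.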

Additional observations from a re-analysis of the deposited data

How the results depend on the processing

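None of the 38 named differences changed sign under any setting tried. The count of P450 genes called was 0 in the main analysis. For MT against WT mice at 3 months it was 1, Cyp2g1, with an adjusted p threshold of 0.1 and with the replicate number as a block (adjusted p 0.0498), and 0 to 1 when 1 array was left out. Same-numbered arrays hardly deviated together (correlations of deviations -0.033 to 0.14), so no pairing by number was seen on this measure, and the block changed no other count. The labels do not say what the numbers stand for. For MT mice against WT mice of 19 months the count was 0 to 1 when 1 array was left out, the 1 being Cyp3a11. The methods' t-test, with a fold over 1.5 and no adjustment, gave 2 genes at 12 against 3 months (Cyp1a2 and Cyp2g1), 1 at 19 against 3 months (Cyp2f2), 2 at 19 against 12 months (Cyp2u1 and Cyp2f2), and 0 for the other comparisons, and 0 in all after Benjamini-Hochberg adjustment. Of all 22519 probe sets tested, the unadjusted rule gave 502, 750 and 524 in these 3 comparisons of WT mice. It gave 890 probe sets for MT against WT mice at 3 months and 667 for MT mice against WT mice of 19 months. The median log2 difference over the 43 genes was -0.20 at 19 against 3 months, -0.10 at 19 against 12 months and 0.18 for MT mice against WT mice of 19 months, and quantile normalization gave -0.077, 0.016 and 0.065. The 7 genes with a further probe set (tested for 5) had a median of -0.59 with it and -0.29 with the probe set used for MT against WT mice at 3 months, -0.21 and 0.21 at 12 against 3 months, -0.31 and -0.097 at 19 against 12 months, and -0.030 and 0.16 for MT mice against WT mice of 19 months. When 1 array was left out, the medians ranged from -0.11 to 0.089 for MT against WT mice at 3 months, -0.21 to -0.05 at 12 against 3 months, -0.25 to -0.12 at 19 against 3 months, -0.15 to 0.037 at 19 against 12 months (above 0 without 19-month array 2), and 0.032 to 0.23 for MT mice against WT mice of 19 months (lowest without MT array 1). The causes of these shifts were not tested. With 2 arrays a group, and without detection calls, differences of genes near the array median, such as Cyp1a1, could hardly be measured.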

Other observations

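Targets of the receptors that act on P450 genes were counted as lists, some of whose genes are P450 genes described above. None of the 8 tested CAR and PXR targets was called in a comparison against WT mice of 3 months. In MT mice 4 of the 8 were above 0 and 4 below (median log2 difference 0.04). At 12 months 7 of 8 were below 0 (median -0.36, 4 with arrays apart, beside 20.8% of all probe sets apart and lower) and at 19 months 6 of 8 (median -0.23, 5 with arrays apart, beside 21.8%). Abcc3, a conjugate exporter on this list, had signals of 2717 and 4503 at 12 months and 4615 and 4499 at 19 months, against 5799 and 6323 at 3 months. Of the 4 tested AhR targets 0 were called, and Nqo1, a quinone reductase, had overlapping signals at 19 and 3 months (310.2 and 370.1 at 19 months, against 324 and 382 at 3 months).

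Of the lists of other cells, endothelial markers (median log2 difference 0.07 at 19 against 3 months, 4 of 8 above 0) and stellate cell markers (median -0.0044, 3 of 7 above 0) were near the median of all probe sets. All 5 tested B and plasma cell markers were above 0 at 19 months (median 2.74, 1 called, beside 0.0355% of all probe sets). Their summed signal was 7641 to 8458 at 19 months, against 1109 to 1418 at 3 months, and their part in the P450 values was not tested.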
